A study of Arabidopsis thaliana with 9 samples.

Results

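The genes for 7 general elongation factors of RNA polymerase II were followed through the RNA-seq counts of *bdr1,2,3*, *fpa* and wild-type *Arabidopsis* seedlings. They were chosen by name, as the genes for *TFIIS*, the SPT proteins and the FACT complex. No measured value entered that rule, but earlier results of these data were known when the choice was made. They are *TFIIS* (AT2G38560), *SPT4-1* (AT5G08565), *SPT4-2* (AT5G63670), *SPT5-2* (AT4G08350), *SPT6L* (AT1G65440), *SPT16* (AT4G10710) and *SSRP1* (AT3G28730). These are 7 of the 33602 gene identifiers in the count table, and 7 of 7 passed the filter on low counts that left 20413 genes for testing. The question was whether transcripts of elongation factors differ when the BDR proteins or FPA are lost.

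Each genotype had 3 libraries of whole Col-0 seedlings, 8 days old, grown on MS plates at 21 °C with 16 h of light and 8 h of dark. All were stratified for 4 days at 4 °C. The *bdr1,2,3* plants carry T-DNA insertions in *BDR1*, *BDR2* and *BDR3* together (*bdr1-1*, *bdr2-1* and *bdr3-1*). The *fpa* plants are mutated in *FPA*, with an allele that the labels do not name, and the wild-type plants carry none of these mutations. Replicates are described as biological triplicates, and the sources used here do not say how many seedlings or plates went into a library.

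Elongation factors travel with RNA polymerase II or act on the nucleosomes in its path. TFIIS binds polymerase that has slid backward and stimulates cleavage of the nascent RNA, so that synthesis can restart. SPT4 and SPT5 form a dimer that clamps onto the polymerase, SPT6 is a histone chaperone that binds it, and SPT16 and SSRP1 are the subunits of FACT, which loosens and rebuilds nucleosomes during transcription. The BDR proteins share the central domain of TFIIS, which is the domain that contacts the polymerase. FPA is an RNA-binding protein that promotes the use of proximal poly(A) sites and the end of transcription.

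The 9 libraries were not alike in depth. Their totals were 14557440 to 24810614 counts for *bdr1,2,3*, 16995153 to 20384978 counts for *fpa* and 8676610 to 26861793 counts for wild type. Wild-type replicate 12 was the shallowest, and it and *bdr1,2,3* replicate 7 stood apart from the other libraries in a way that moved with transcript length. Genes with at least 2388 bp of exon lay at a median of -0.14 log2 units from their own mean over the libraries in *bdr1,2,3* replicate 7 and at -0.26 in wild-type replicate 12. Genes with at most 1274 bp lay at 0.1975 and 0.15 in the same libraries. *fpa* replicate 8 leaned the same way more weakly, at -0.03 for the long genes and 0.08 for the short ones. The remaining libraries had the opposite signs. The cause was not tested. *BDR1* had 24, 49 and 13 counts in *bdr1,2,3*, against 812, 205 and 1098 in wild type. It fell in *bdr1,2,3* (log2 fold change -4.81, adjusted p = 3.56e-07 by edgeR's quasi-likelihood test), as did *BDR2* (-0.85, adjusted p = 0.0177 by the same edgeR test, a call lost in 5 of 16 alternative fits). *BDR3* had a log2 fold change of -0.76 that did not pass (edgeR adjusted p = 0.226). *FPA* had 803, 773 and 797 counts in *fpa*, against 1098, 298 and 1693 in wild type, and the difference did not pass either (log2 fold change -0.39, edgeR adjusted p = 0.248). In *bdr1,2,3* against wild type *FPA* was at -0.53, which did not pass (edgeR adjusted p = 0.172), so a lower value was not particular to *fpa*. Counts per gene do not show whether a transcript is intact, so *FPA* does not check the label of the *fpa* libraries. Of 4 leaf markers, *RCA* (-0.73) and *CA1* (-0.88) fell in *bdr1,2,3*, and of 4 root markers *RHS15* (1.195) and *PRX44* (0.75) rose there and *PRX44* (0.79) rose in *fpa*, by log2 fold change in the same edgeR fit. No leaf marker was called in *fpa*. Of 16 alternative fits, the calls in *bdr1,2,3* were lost in 5 for *RCA*, 3 for *CA1*, 2 for *RHS15* and 8 for *PRX44*, and that of *PRX44* in *fpa* in 4. In whole seedlings, fewer cells of a type and less RNA per cell cannot be told apart. Summed levels of the leaf markers were 24840 to 28340 CPM (counts scaled to a common library size by TMM) in *bdr1,2,3*, 23690 to 28090 in *fpa* and 28870 to 46460 in wild type, and those of the root markers were 52.98 to 70.55 CPM in *bdr1,2,3*, 55.0 to 66.9 in *fpa* and 36.45 to 45.9 in wild type. The medians of the leaf marker sums were 27050 CPM in *bdr1,2,3*, 27220 in *fpa* and 29390 in wild type. The top wild-type sum was that of replicate 12, the shallowest library. No marker of 5 for dividing cells was called in either mutant, and the 3 flower and 3 seed markers each summed to at most 5.53 CPM in any library. Their part in the values of the elongation factors was not tested.

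None of the 7 elongation factor genes passed the test in *bdr1,2,3* or in *fpa* against wild type, nor between the mutants. A gene was called at an adjusted p under 0.05. Over all genes tested, 2.48% were called in *bdr1,2,3* against wild type, 3.1% in *fpa* against wild type and 3.54% in *bdr1,2,3* against *fpa*, and 0 of 7 members were called in each. By direction, 0.603% of genes were called higher and 1.88% lower in *bdr1,2,3* against wild type. In *fpa* against wild type these shares were 1.28% and 1.82%, and in *bdr1,2,3* against *fpa* 1.38% and 2.16%. At an unadjusted p under 0.05 in the same edgeR fit the count was also 0 of 7 in each, where 15.1% of all genes tested passed in *bdr1,2,3* against wild type, 19.8% in *fpa* against wild type and 14.9% in *bdr1,2,3* against *fpa*. DESeq2 called 0 of 7 as well. The smallest adjusted p of a member was 0.82 in *bdr1,2,3* against wild type, 0.642 in *fpa* against wild type and 0.863 between the mutants, by edgeR's quasi-likelihood test. The median log2 fold change of the members was 0.02 in *bdr1,2,3*, 0.08 in *fpa* and -0.03 between the mutants, beside medians of 0.01, 0.00 and 0.01 over all genes tested. Members whose libraries did not overlap between genotypes numbered 0 of 7 in each comparison, against 19.1%, 26.6% and 24.1% of all genes tested in the same order.

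A p that misses the threshold does not show equal levels, so the intervals say how large a difference these libraries leave possible. For the 6 members other than *SPT4-1*, the 95% intervals of the fold change stayed between 0.74 and 1.53 in *bdr1,2,3* against wild type, between 0.752 and 1.47 in *fpa* against wild type, and between 0.695 and 1.46 in *bdr1,2,3* against *fpa*. For *SPT4-1*, the member with the fewest counts and the largest spread between libraries, the interval was wider, at 0.485 to 1.82 in *bdr1,2,3* against wild type, 0.439 to 1.65 in *fpa* against wild type and 0.573 to 2.13 in *bdr1,2,3* against *fpa*.

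**Figure D1:**
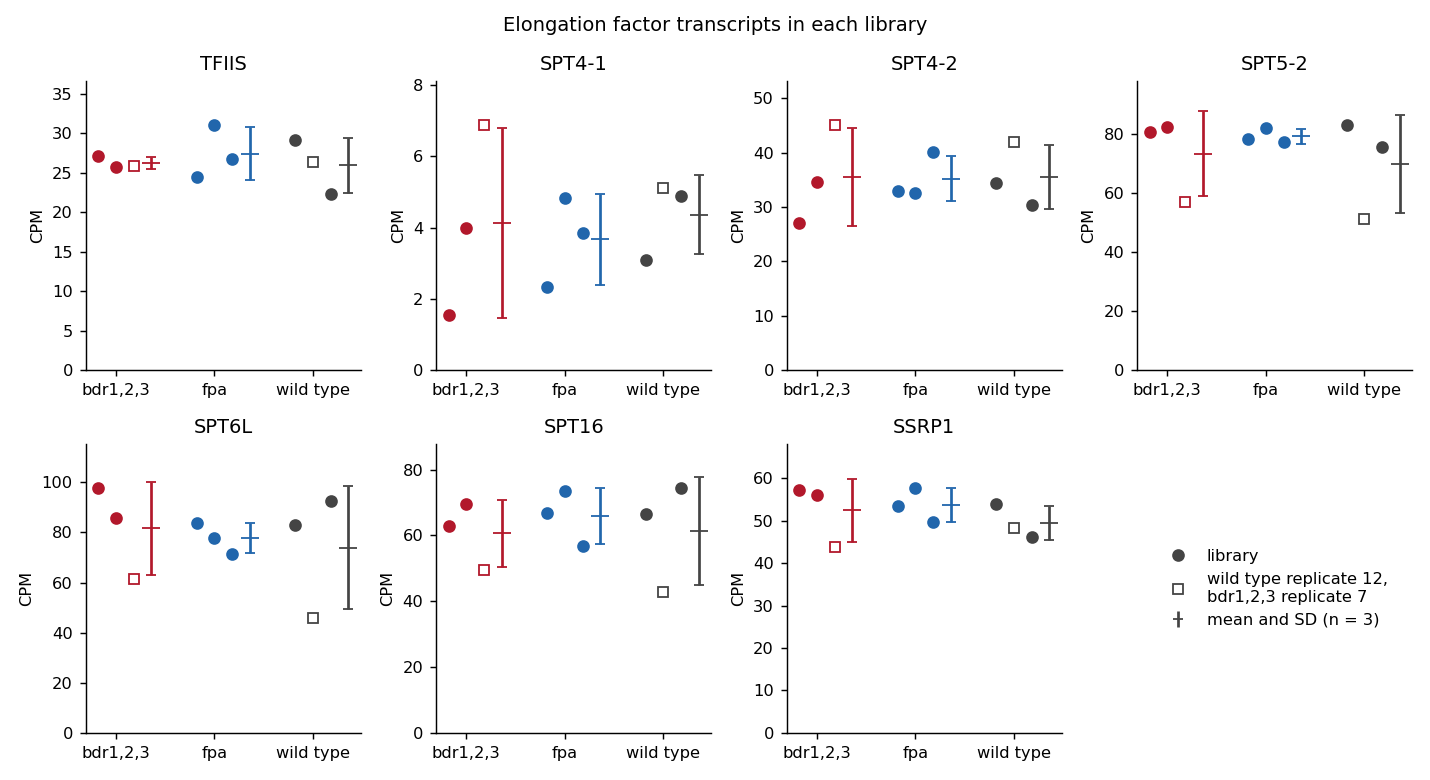
Level of each elongation factor transcript in CPM (y axis, from 0) in the 3 libraries of *bdr1,2,3*, *fpa* and wild type (x axis). Points are libraries, open squares are wild-type replicate 12 and *bdr1,2,3* replicate 7, and bars are the mean and SD (n = 3). The genotypes overlap in all 7 panels, and the open squares are the low points of SPT5-2, SPT6L and SPT16 in their genotypes.

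The factor that restarts stalled polymerase, *TFIIS*, lies on chromosome 2 from 16134543 to 16136695 (TAIR10.1, plus strand), with 2 exons. Its level was 27.15, 25.67 and 25.85 CPM in *bdr1,2,3* replicates 2, 4 and 7, 24.41, 31.02 and 26.78 CPM in *fpa* replicates 3, 6 and 8, and 29.20, 26.38 and 22.26 CPM in wild-type replicates 1, 12 and 5. The *bdr1,2,3* libraries all lay inside the range of wild type, and the highest library of all was an *fpa* one. Its means were 26.2 ± 0.809 CPM in *bdr1,2,3*, 27.4 ± 3.35 in *fpa* and 25.95 ± 3.49 in wild type (SD, n = 3 each). The log2 fold change was 0.02 in *bdr1,2,3* (standard error 0.15, 95% interval -0.30 to 0.34, edgeR adjusted p = 0.967) and 0.08 in *fpa* (standard error 0.15, -0.24 to 0.40, edgeR adjusted p = 0.809). Of the 7 members it had the smallest spread of log2 CPM over the 9 libraries (SD 0.138), close to that of *SSRP1* (SD 0.143).

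The SPT4 subunit of the SPT4-SPT5 dimer is encoded by a pair of genes on chromosome 5, *SPT4-1* from 2775897 to 2777474 and *SPT4-2* from 25487927 to 25489600, both on the plus strand with 5 exons. Over their 351 coding bases, 294 are identical (83.8%), so whether reads can be told apart bears on each count. The authors kept uniquely aligned reads of 49 bases. Slid along the annotated exons, every 49-base window of both genes matched a single place in the genome (554 of 554 windows and 549 of 549). Along the coding sequence, the window most alike in the pair held 2 differing bases and the median window 7. Coding exons 4 and 5 are shown since they are the most alike and the least alike parts of the pair, with the bases that differ between the genes in capitals, read 5′ to 3′ on the plus strand from RefSeq's TAIR10.1.
SPT4-1 exon 4 (chr5:2776924-2776985): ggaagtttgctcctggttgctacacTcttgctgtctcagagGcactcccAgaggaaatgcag
SPT4-2 exon 4 (chr5:25488993-25489054): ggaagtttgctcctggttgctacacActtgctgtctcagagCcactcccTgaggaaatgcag
SPT4-1 exon 5 (chr5:2777104-2777154): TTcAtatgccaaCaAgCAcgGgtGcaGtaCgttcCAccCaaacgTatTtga
SPT4-2 exon 5 (chr5:25489197-25489247): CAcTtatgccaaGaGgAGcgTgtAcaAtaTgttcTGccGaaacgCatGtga
Exon 4 has 3 differing bases in 62, with a longest identical stretch of 25 bases, and exon 5 has 16 in 51. Each identical stretch is shorter than a read.

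*SPT4-1* was the scarcest member. It had 36, 100 and 100 counts in *bdr1,2,3*, 41, 91 and 81 in *fpa*, and 60, 36 and 131 in wild type. Scaled to library size, the levels were 1.54, 3.98 and 6.88 CPM in *bdr1,2,3*, 2.32, 4.83 and 3.85 CPM in *fpa*, and 3.11, 5.11 and 4.89 CPM in wild type. Both the lowest and the highest library were *bdr1,2,3* ones, and the other genotypes lay between them. The log2 fold change was -0.09 in *bdr1,2,3* (standard error 0.45, 95% interval -1.04 to 0.86, edgeR adjusted p = 0.946) and -0.23 in *fpa* (standard error 0.45, -1.19 to 0.72, edgeR adjusted p = 0.816). Without *bdr1,2,3* replicate 7 it was -0.64 in *bdr1,2,3*, and without replicate 2 it was 0.31, and neither value was called. Without wild-type replicate 12 or wild-type replicate 5 it was 0.00 and 0.03, so the sign turned on single libraries of either genotype.

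*SPT4-2* had 582 to 869 counts in the libraries other than wild-type replicate 12, where it had 296. Its level was 27.11, 34.58 and 45.04 CPM in *bdr1,2,3*, 32.96, 32.61 and 40.05 CPM in *fpa*, and 34.32, 41.98 and 30.29 CPM in wild type. The highest libraries were *bdr1,2,3* replicate 7 and wild-type replicate 12, the same ones in which short transcripts as a whole were highest. Means were 35.6 ± 9.01 CPM in *bdr1,2,3*, 35.2 ± 4.199 in *fpa* and 35.5 ± 5.94 in wild type (SD, n = 3 each), with log2 fold changes of 0.01 in *bdr1,2,3* and -0.00 in *fpa* (standard error 0.19 for both, edgeR adjusted p = 0.989 and 0.996).

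As a share of the counts of the SPT4 pair, *SPT4-1* took 5.39% (95% exact Clopper-Pearson interval 3.8 to 7.38), 10.3% (8.48 to 12.4) and 13.2% (10.9 to 15.9) in *bdr1,2,3*, 6.58% (4.76 to 8.82), 12.9% (10.5 to 15.6) and 8.78% (7.03 to 10.8) in *fpa*, and 8.3% (6.39 to 10.6), 10.8% (7.71 to 14.7) and 13.9% (11.8 to 16.3) in wild type. These intervals cover counting error only. In each genotype the intervals of the lowest and the highest library did not overlap, while the genotypes overlapped with each other. With the levels divided by exon length, the share averaged 9.60 ± 3.95% in *bdr1,2,3*, 9.37 ± 3.196% in *fpa* and 10.95 ± 2.79% in wild type (SD, n = 3 each). Exact permutation tests of the means, two-sided, gave p = 0.6 for each mutant against wild type and 0.9 between the mutants (0.9 for each after adjustment over 9 tests of 3 ratios). With 3 against 3 libraries such a test cannot give a p below 0.1.

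**Figure D2:**
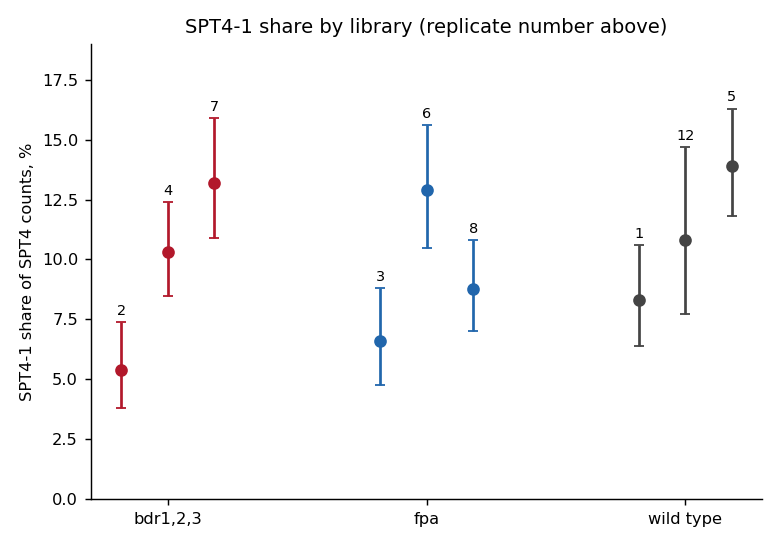
Share of the SPT4 counts that belong to SPT4-1, in percent (y axis, from 0), in each library of *bdr1,2,3*, *fpa* and wild type (x axis), with exact 95% binomial intervals and the replicate number above each. Shares run from 5.39% to 13.2% in *bdr1,2,3*, from 6.58% to 12.9% in *fpa* and from 8.3% to 13.9% in wild type, so the genotypes overlap.

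The partner of SPT4 in the dimer is encoded by *SPT5-2*, on chromosome 4 from 5286158 to 5292270 (plus strand, 22 exons). Its level was 80.77, 82.69 and 57.00 CPM in *bdr1,2,3*, 78.43, 82.17 and 77.49 CPM in *fpa*, and 83.15, 51.34 and 75.81 CPM in wild type. All 3 *fpa* libraries were close together, while *bdr1,2,3* replicate 7 and wild-type replicate 12 were each far below the rest of their genotype. In *fpa* against wild type the log2 fold change was 0.17 (standard error 0.18, 95% interval -0.22 to 0.56, edgeR adjusted p = 0.642), which was the smallest adjusted p of any member against wild type, and in *bdr1,2,3* it was 0.06 (standard error 0.18, edgeR adjusted p = 0.906). Without wild-type replicate 12 and *bdr1,2,3* replicate 7 the value in *fpa* was 0.00. The paralog *SPT5-1* (AT2G34210), 81.1% identical over the aligned coding bases, had 0, 0 and 1 counts in *bdr1,2,3*, 0, 5 and 2 in *fpa* and 1, 3 and 6 in wild type, too few to test.

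*SPT6L*, the chaperone that binds the moving polymerase, is the longest member, on chromosome 1 from 24306545 to 24314639 (minus strand, 17 exons, 5618 bp of exon). It was measured at 97.76, 85.79 and 61.27 CPM in *bdr1,2,3*, 83.81, 77.92 and 71.50 CPM in *fpa*, and 83.09, 45.95 and 92.32 CPM in wild type. Its highest library was a *bdr1,2,3* one and its lowest a wild-type one, with the *fpa* libraries between. It averaged 81.6 ± 18.6 CPM in *bdr1,2,3*, 77.7 ± 6.16 in *fpa* and 73.8 ± 24.5 in wild type (SD, n = 3 each). The log2 fold change was 0.14 in *bdr1,2,3* (standard error 0.22, 95% interval -0.34 to 0.61, edgeR adjusted p = 0.82) and 0.06 in *fpa* (standard error 0.22, -0.41 to 0.54, edgeR adjusted p = 0.907). Without the libraries that stood apart, the values were 0.06 in *bdr1,2,3* and -0.17 in *fpa*. *SPT6* (AT1G63210), its paralog with 81.6% identity over the aligned coding bases, had at most 5 counts in any library.

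Of the FACT subunits, *SPT16*, which binds histones, lies on chromosome 4 from 6601903 to 6606357 (minus strand), and *SSRP1*, which carries an HMG box, lies on chromosome 3 from 10784888 to 10788729 (plus strand). *SPT16* stood at 62.80, 69.52 and 49.51 CPM in *bdr1,2,3*, 66.88, 73.62 and 56.75 CPM in *fpa*, and 66.42, 42.83 and 74.43 CPM in wild type. *SSRP1* stood at 57.35, 56.03 and 43.87 CPM in *bdr1,2,3*, 53.52, 57.74 and 49.66 CPM in *fpa*, and 54.00, 48.22 and 46.08 CPM in wild type. *SPT16* was lowest within its genotype in *bdr1,2,3* replicate 7 and in wild-type replicate 12. *SSRP1* was lowest of all in *bdr1,2,3* replicate 7, but in wild-type replicate 12 it lay between the other libraries of the genotype. The log2 fold changes of *SPT16* were -0.02 in *bdr1,2,3* and 0.09 in *fpa* (standard error 0.19 for both, edgeR adjusted p = 0.967 and 0.831), and those of *SSRP1* were 0.09 and 0.12 (standard error 0.14 for both, edgeR adjusted p = 0.82 and 0.688). The log2 ratio of *SSRP1* to *SPT16*, per exon length, was 0.72 ± 0.094 in *bdr1,2,3*, 0.64 ± 0.084 in *fpa* and 0.65 ± 0.43 in wild type (SD, n = 3 each). It ran from 0.23 to 1.10 among the wild-type libraries, wider than in either mutant, and the exact permutation p was 0.8, 0.9 and 0.2 for *bdr1,2,3* against wild type, *fpa* against wild type and *bdr1,2,3* against *fpa*. The log2 ratio of the summed SPT4 level to *SPT5-2* was 1.25 ± 0.70 in *bdr1,2,3*, 1.12 ± 0.19 in *fpa* and 1.36 ± 0.58 in wild type, with exact permutation p = 0.8, 0.6 and 0.8 in the same order of comparisons. It was 2.02 in *bdr1,2,3* replicate 7 and 2.03 in wild-type replicate 12, the libraries that stood apart by transcript length. The other libraries of these genotypes ran from 0.66 to 1.055.

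**Figure D3:**
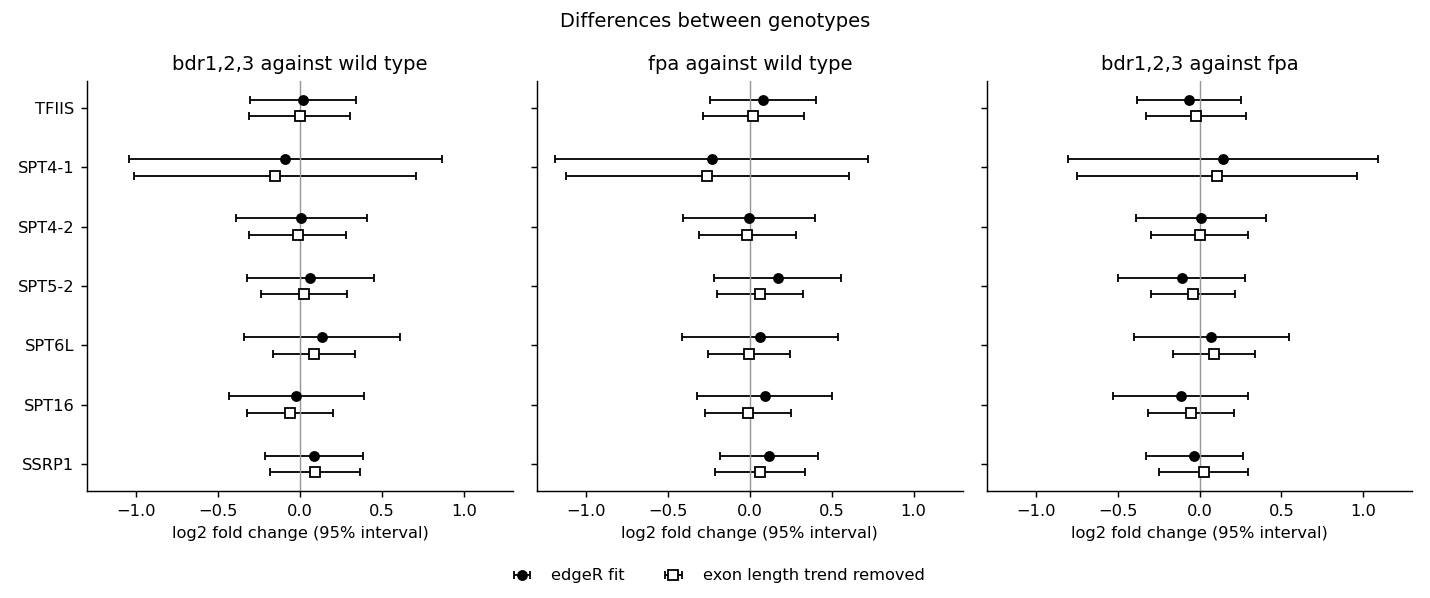
Log2 fold change (x axis) of each elongation factor gene (y axis) with its 95% interval, in *bdr1,2,3* against wild type, *fpa* against wild type and *bdr1,2,3* against *fpa*. Filled circles are the edgeR fit and open squares the same fit with each library's trend on exon length removed. All intervals include 0, and those of SPT4-1 are the widest.

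In both libraries that stood apart, the long and the short members lay on opposite sides of their means. Relative to its mean over the 9 libraries, *SPT6L* was at -0.31 log2 units in *bdr1,2,3* replicate 7 and -0.72 in wild-type replicate 12. *SPT16* was at -0.31 and -0.52 in the same libraries, and *SPT5-2* at -0.36 and -0.51. These are the 3 longest members, with 5618, 4249 and 3517 bp of exon, longer than 99.0%, 96.6% and 92.7% of the tested genes. The short members went the other way, *SPT4-2* (789 bp) being at 0.36 and 0.26 and *SPT4-1* (794 bp) at 0.86 and 0.44. *TFIIS* (1772 bp), close to the middle of all genes in length, was at -0.03 and -0.00. In *fpa* replicate 8, *SPT4-2* was at 0.19, *SPT4-1* at 0.04, *SPT6L* at -0.09 and *SPT16* at -0.12, but *SPT5-2* was at 0.08.

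A fit that removed the trend of log2 CPM on exon length from each library, chosen after these values were seen, narrowed the spread of the long members. The SD over the 9 libraries was 0.085 after removal, against 0.337 before, for *SPT6L*, 0.0973 against 0.256 for *SPT5-2*, and 0.101 against 0.27 for *SPT16*. *SPT4-2* went to 0.139 against 0.233, while *TFIIS* (0.141 against 0.138), *SSRP1* (0.122 against 0.143) and *SPT4-1* (0.572 against 0.634) moved less. Again 0 of 7 members were called in each comparison. The intervals of the 6 members other than *SPT4-1* then ran from 0.799 to 1.29 in *bdr1,2,3* against wild type, from 0.806 to 1.26 in *fpa* against wild type and from 0.797 to 1.26 in *bdr1,2,3* against *fpa*. Without wild-type replicate 12 and *bdr1,2,3* replicate 7, with no such trend removed, 0 of 7 were called as well, and the smallest edgeR adjusted p of a member was 0.549, 0.397 and 0.202 in the same order of comparisons. That fit kept *fpa* replicate 8, which had the same trend in a weaker form.

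**Figure D4:**
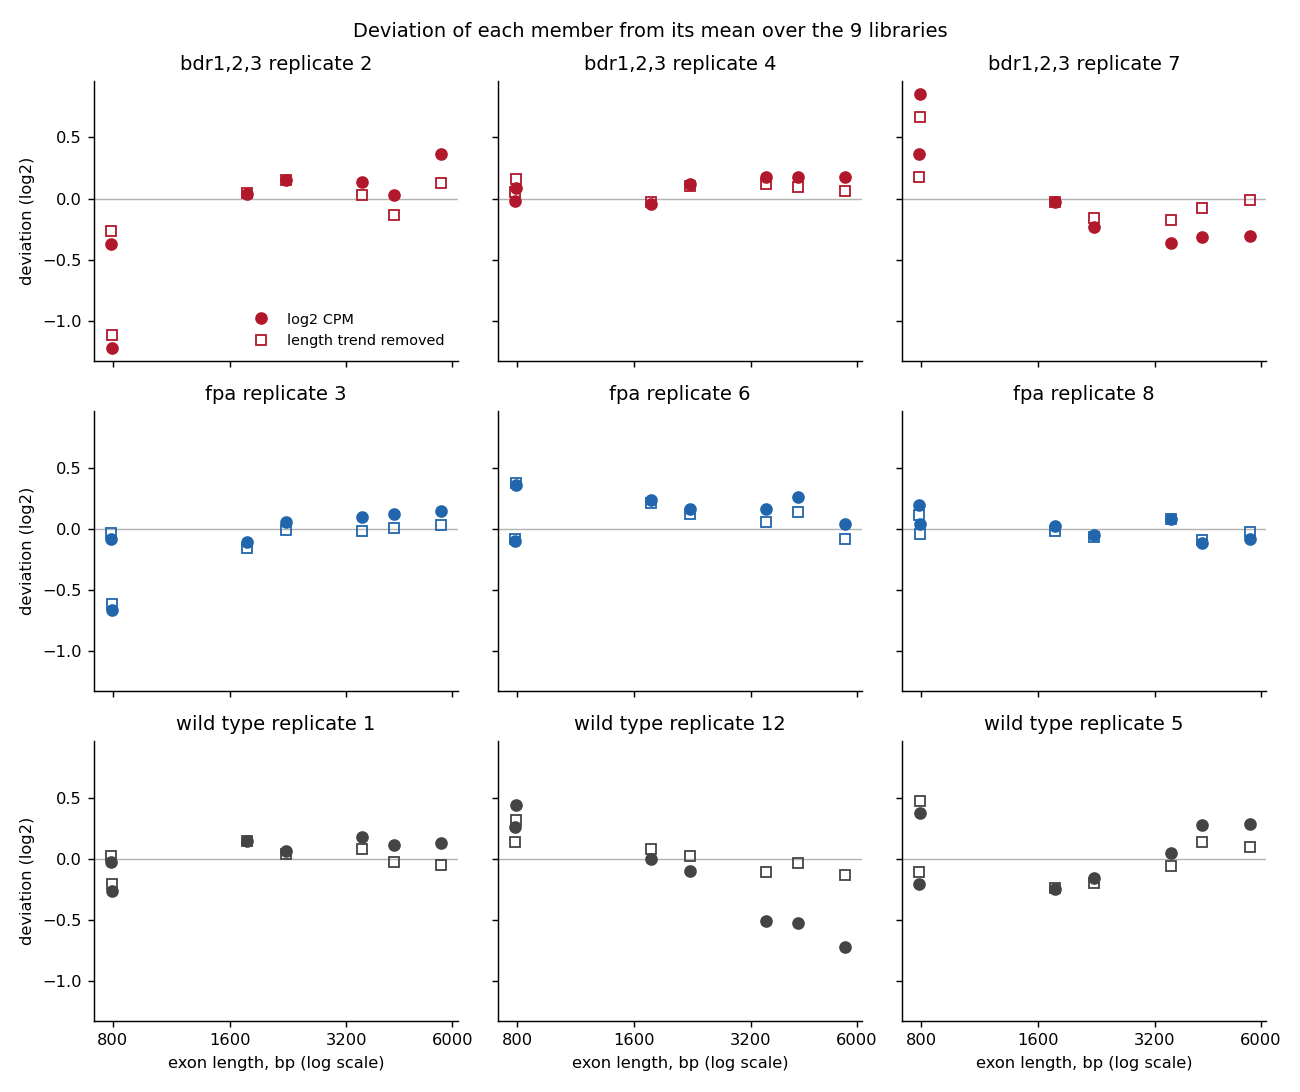
Deviation of each elongation factor gene from its mean log2 CPM over the 9 libraries (y axis, log2 units) against exon length in bp (x axis, log scale), with 1 panel per library and rows for *bdr1,2,3*, *fpa* and wild type. Filled circles are log2 CPM and open squares the values with the length trend removed. In bdr1,2,3 replicate 7 and wild type replicate 12 the short genes lie above 0 and the long genes below it, down to -0.72, and the open squares of the long genes lie nearer to 0.

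Levels can be compared between genes only per length, here as RPKM, the CPM divided by the exon length in kilobases. *SPT4-2* was the most abundant, at 44.9 ± 7.34 RPKM (SD over 9 libraries), and its lowest library (34.4 RPKM) lay above the highest of every other member. *SSRP1* came next with 23.2 ± 2.26 RPKM and *SPT5-2* with 21.1 ± 3.35 RPKM, and *SSRP1* was the higher of these in 8 of 9 libraries with overlapping ranges. *TFIIS* at 15.0 RPKM, *SPT16* at 14.7 RPKM and *SPT6L* at 13.8 RPKM did not differ beyond their spread, although *SPT16* was above *SPT6L* in 8 of 9 libraries. *SPT4-1* was last at 5.11 ± 2.02 RPKM and below *SPT6L* in 9 of 9 libraries, although the range of *SPT6L* (8.18 to 17.4 RPKM) touched that of *SPT4-1* (1.95 to 8.66 RPKM) across libraries. *SPT4-2* was first and *SPT4-1* last in every library of *bdr1,2,3*, *fpa* and wild type.

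**Figure D5:**
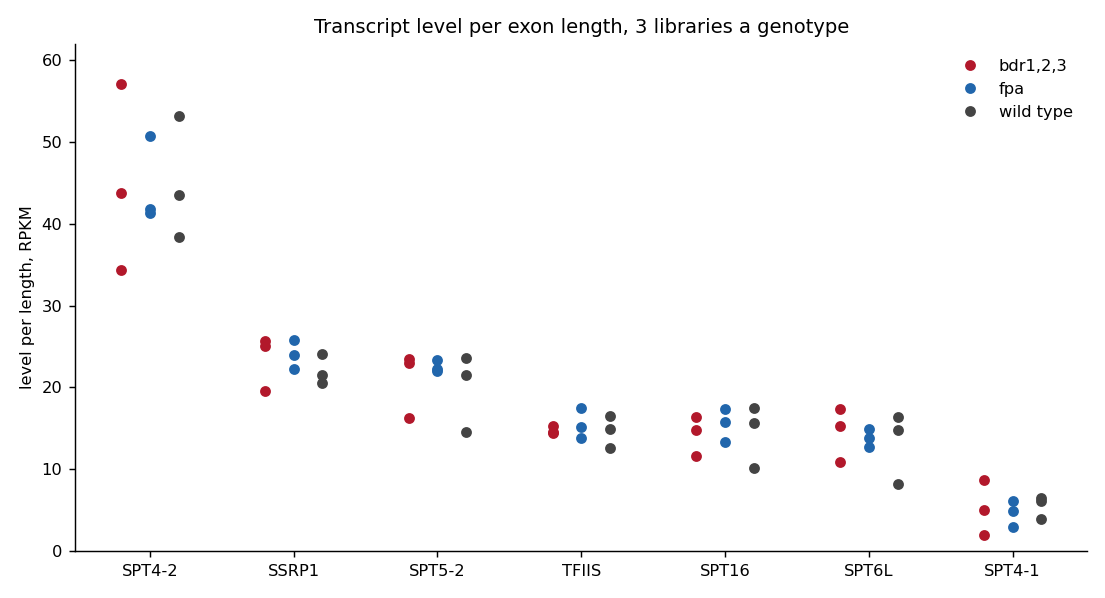
Transcript level per exon length in RPKM (y axis, from 0) of the 7 elongation factor genes, ordered by their mean over the 9 libraries (x axis), with a point for each library of *bdr1,2,3*, *fpa* and wild type. SPT4-2 lies at 34.4 RPKM or above in every library and SPT4-1 at 8.66 RPKM or below.

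The nearest protein-coding gene on each side of each member was followed too, since the study asks about the influence of upstream genes on the same strand. *TFIIS* begins 113 bp after AT2G38550 and *SSRP1* begins 253 bp after AT3G28720, each on the same strand, and *SPT4-2* lies 1602 bp after *PDF2.5*. For the other 4 members the nearest upstream protein-coding gene is on the opposite strand, from 1082 bp away for *SPT6L* to 29379 bp for *SPT5-2*. AT2G38550 had 75.58, 78.35 and 96.54 CPM in *bdr1,2,3*, 86.65, 79.30 and 94.00 CPM in *fpa*, and 69.06, 89.92 and 69.95 CPM in wild type. The genotypes overlapped, and the log2 fold changes of 0.13 in *bdr1,2,3* and 0.19 in *fpa* did not pass (edgeR adjusted p = 0.725 and 0.519). AT3G28720 had 39.85, 39.48 and 30.87 CPM in *bdr1,2,3*, 34.8, 35.4 and 32.8 CPM in *fpa*, and 39.0, 60.4 and 48.8 CPM in wild type. Its *bdr1,2,3* libraries overlapped the wild-type ones. The *fpa* libraries all lay below the wild-type ones, where 26.6% of all genes tested did not overlap between *fpa* and wild type. Neither difference passed, with a log2 fold change of -0.42 in *bdr1,2,3* (95% interval -0.77 to -0.06, edgeR adjusted p = 0.244) and -0.52 in *fpa* (-0.87 to -0.16, edgeR adjusted p = 0.102). Both intervals, which are not adjusted for the number of genes, lay below 0. *SSRP1* itself had log2 fold changes of 0.09 in *bdr1,2,3* and 0.12 in *fpa*. Closest downstream on the same strand, *ARI8* begins 206 bp after *SPT6L*, AT5G63680 464 bp after *SPT4-2* and AT5G08570 525 bp after *SPT4-1*. Their log2 fold changes in *bdr1,2,3* were 0.07, -0.05 and -0.20 (edgeR adjusted p = 0.858, 0.89 and 0.465). Only for AT5G08570 did the *bdr1,2,3* libraries all lie below the wild-type ones. Libraries of these genotypes did not overlap in 19.1% of all genes tested. At their 3′ ends *TFIIS* overlaps AT2G38570 by 7 bp and *SSRP1* overlaps *CYP81D11* by 32 bp, both on the opposite strand. The strand setting of the counting is not given in the sources used here, so reads in these short overlaps cannot be told apart. None of these nearest protein-coding genes that could be tested was called in any of the 3 comparisons.

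Among listed genes that work with these factors, 0 were called in *bdr1,2,3* and 1 in *fpa* against wild type. Over all genes tested the shares were 2.48% and 3.1%, at which lists this short would hold few called genes. Of 11 paralogs and partners, among them the kinase and cyclin subunits of P-TEFb and the subunits of TFIIF, 8 could be tested and 0 were called in either mutant. *TFIIF beta* had the smallest p in both mutants, with a log2 fold change of 0.49 in *bdr1,2,3* and 0.69 in *fpa* (edgeR adjusted p = 0.303 and 0.0975), values that did not pass. At an unadjusted p under 0.05 in edgeR, 1 of 8 passed in *bdr1,2,3* and 2 of 8 in *fpa*, near the shares of all genes tested (15.1% and 19.8%). Of 6 genes of Elongator, a histone acetyltransferase complex that binds the elongating polymerase, 0 were called and 0 had an unadjusted p under 0.05 in edgeR (15.1% of all genes tested in *bdr1,2,3* and 19.8% in *fpa*), with *ELP3* at -0.20 in *bdr1,2,3* and -0.23 in *fpa* (edgeR adjusted p = 0.499 and 0.353). Of 13 genes for subunits of RNA polymerase II 0 were called, and 4 of 13 in *bdr1,2,3* and 1 of 13 in *fpa* had an unadjusted p under 0.05 in edgeR, beside the same 15.1% and 19.8% of all genes tested. *NRPB4* came nearest in *bdr1,2,3* (0.44, edgeR adjusted p = 0.196) and *NRPB5A* in *fpa* (0.41, edgeR adjusted p = 0.113). Median log2 fold changes of the 3 lists, in that order, were 0.19, -0.10 and 0.17 in *bdr1,2,3* against wild type and 0.31, -0.09 and 0.04 in *fpa* against wild type, beside 0.01 and 0.00 over all genes tested.

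The called gene was among 15 other histone chaperones and HMG-box genes. Of these, 0 of 15 were called in *bdr1,2,3* against wild type, where *HMGB4* had the smallest p (log2 fold change 0.22, edgeR adjusted p = 0.531). In *fpa* against wild type 1 of 15 rose, where 1.28% of all genes tested were called higher, and in *bdr1,2,3* against *fpa* 1 of 15 fell, where 2.16% were called lower. At an unadjusted p under 0.05 in edgeR the counts were 0, 4 and 2 of 15 in these comparisons, beside 15.1%, 19.8% and 14.9% of all genes tested. The median log2 fold change of the list was 0.12 in *bdr1,2,3* and 0.32 in *fpa* against wild type, beside 0.01 and 0.00 over all genes tested. *NAP1;3*, a nucleosome assembly protein gene, had 37.4, 38.3 and 50.8 CPM in *bdr1,2,3*, 66.3, 70.4 and 85.2 CPM in *fpa*, and 47.3, 38.4 and 46.1 CPM in wild type. Every *fpa* library lay above every library of the other genotypes. Libraries did not overlap in 26.6% of all genes tested in *fpa* against wild type and 24.1% in *bdr1,2,3* against *fpa*. The log2 fold change of *NAP1;3* was 0.75 in *fpa* against wild type (standard error 0.16, edgeR adjusted p = 0.021) and -0.81 in *bdr1,2,3* against *fpa* (edgeR adjusted p = 0.00856). It was -0.07 in *bdr1,2,3* against wild type (edgeR adjusted p = 0.878), and both calls use the same *fpa* libraries. The first call was lost without wild-type replicate 5, *fpa* replicate 6 or *fpa* replicate 8, with log2 fold changes of 0.63 to 0.82 over 16 alternative fits. The difference between the mutants lost its call without *bdr1,2,3* replicate 2, *bdr1,2,3* replicate 4 or *fpa* replicate 8. With wild-type replicate 12 and *bdr1,2,3* replicate 7 left out, the value in *fpa* against wild type was 0.67 (edgeR adjusted p = 0.00191).

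As a description, the gene whose log2 CPM followed each member most closely over the 9 libraries was sought among the 17350 tested genes outside the set whose log2 CPM averaged 1 or more. No test was made, and all genes of a library share its depth and length trend. The closest to *SPT6L* was *WAVE5* (Pearson's r = 0.991, 6688 bp of exon), to *SPT16* *FTSH12* (r = 0.979, 3742 bp), to *SPT5-2* *DET1* (r = 0.981, 1932 bp) and to *SPT4-2* AT4G32240 (r = 0.964, 1023 bp). For *SPT6L*, 334 genes had an r above 0.9, and 7 did once the length trend was removed. For *SSRP1* it was AT3G63400 (r = 0.947), for *SPT4-1* *PSK3* (r = 0.955) and for *TFIIS* AT1G78010 (r = 0.909). For *TFIIS* and *SPT4-1* the closest gene stayed the same with the trend removed, and for the other 5 it was another gene.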

How the data were processed

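RNA-seq was analysed from 9 libraries, 3 per genotype, assigned from the sample labels. The authors aligned single-end reads to TAIR10 with TopHat2 2.0.8, kept unique alignments with SAMtools 1.2 and deposited raw read counts per gene from featureCounts (version and strand setting not given in the sources used here). Their table of normalized values, which holds 8 libraries and no column for wild-type replicate 12, was not used.

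Counts were filtered with filterByExpr, scaled by TMM and tested with edgeR 4.0.16 in R 4.3.3 (quasi-likelihood test, 1 fit of 3 genotypes, two-sided, Benjamini-Hochberg adjustment over 20413 genes, adjusted p under 0.05). The standard error is the log2 fold change over the square root of F, and 95% intervals use the fit's degrees of freedom. Variation between replicates over all genes (edgeR's common BCV) was 0.188, and the gene-wise value was 0.363 for *SPT4-1*, which had 36 to 131 counts per library, and 0.128 to 0.196 for the other members. Same-genotype libraries differed by more than sampling noise (chi-square per degree of freedom 8.49 to 36.6). Exon lengths, neighbors and sequences come from RefSeq's TAIR10.1, which has lengths for 99.4% of tested genes; borders can differ from those the authors counted on. Permutation tests and intervals ran in Python 3.11.15 with scipy 1.17.1, and figures in matplotlib 3.10.9.

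On simulated counts of 20194 genes for *bdr1,2,3* against wild type, edgeR recovered 100% of 4-fold and 72% of 2-fold changes with 6 false calls in 178, and DESeq2 1.42.0 100% and 70% with 14 in 184. Every simulated gene had the same dispersion (BCV 0.188), no length trend was simulated, and the 200 changed genes all lay above a minimum mean level. In the real libraries the BCV differs between genes, at 0.363 for *SPT4-1* and 0.128 to 0.196 for the other members. These rates therefore check the code and do not give the power of the real comparison.

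Named genes are the 7 members, the disrupted genes, list genes called in either mutant or else the smallest p of each list, the closest pattern per member, and neighboring genes. Members, lists and markers were chosen with earlier results of these data known. Alternatives were DESeq2, RLE size factors, other filters, 2-genotype fits, a threshold of 0.01, a minimum absolute log2 fold change of 0.5, ratios not divided by exon length, and each library left out. Leaving out wild-type replicate 12 with *bdr1,2,3* replicate 7, and removing the exon length trend (loess, span 0.3), were added after seeing the data.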

Additional observations from a re-analysis of the deposited data

How the results depend on the processing

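No member was called under any of 17 alternatives (357 values, smallest edgeR or DESeq2 adjusted p 0.202), but 52 values changed sign and 19 of the 21 member results did so at least once. The threshold of 0.01 is among the 17 and repeats the main values, so it could not add a call. No paired analysis was made. The genotypes share no replicate number, and the labels do not say which libraries, if any, were grown or prepared together. Counts of genes called higher and lower in *bdr1,2,3* against wild type (123 and 384) were 259 and 671 with DESeq2, 68 and 234 with only the 2 genotypes compared, 42 and 187 at an adjusted p under 0.01, and 198 and 563 without both wild-type replicate 12 and *bdr1,2,3* replicate 7. In *fpa* against wild type (262 and 371) they were 644 and 885 with DESeq2, 87 and 100 at 0.01, and 620 and 831 without both libraries; 156 were higher with at least 10 counts in every library, and lower ones numbered 575 with no filter, 207 with 2 genotypes and 796 with the length trend removed. In *bdr1,2,3* against *fpa* (282 and 440) they were 495 and 671 with DESeq2, 560 and 709 with 2 genotypes, 109 and 232 at 0.01, and 1042 and 1255 without both libraries, and 429 were higher with the trend removed. The causes were not tested. Log2 fold changes of opposite sign in *bdr1,2,3* against wild type were -0.0018 for *TFIIS* with the trend removed, and for *SPT4-2* -0.0052 with DESeq2, -0.0037 with RLE size factors, -0.0151 with the trend removed and -0.07 without both libraries. In *fpa* against wild type they were 0.0199 (at least 10 counts) and 0.132 (without both) for *SPT4-2*, -0.0038 (trend removed) and -0.1693 (without both) for *SPT6L*, and -0.01 and -0.0949 under the same settings for *SPT16*. In *bdr1,2,3* against *fpa* they were 0.0255 (trend removed) and 0.0696 (without both) for *SSRP1*, and, without both, -0.4182 for *SPT4-1*, -0.202 for *SPT4-2* and 0.0319 for *SPT5-2*. In *bdr1,2,3* against wild type, leaving out each library in turn gave 57 to 188 genes called higher and 218 to 468 lower. The log2 fold changes then ran from -0.0888 to 0.1175 for *TFIIS*, -0.6408 to 0.3136 for *SPT4-1*, -0.1937 to 0.17 for *SPT4-2*, -0.1116 to 0.2129 for *SPT5-2*, -0.1026 to 0.3271 for *SPT6L*, -0.2158 to 0.1398 for *SPT16* and 0.016 to 0.1965 for *SSRP1*. In *fpa* against wild type, leaving out each library in turn gave 97 to 325 genes called higher and 102 to 603 lower. The log2 fold changes then ran from -0.0255 to 0.1806 for *TFIIS*, -0.4791 to 0.0058 for *SPT4-1*, -0.1102 to 0.1243 for *SPT4-2*, -0.0031 to 0.3082 for *SPT5-2*, -0.1755 to 0.255 for *SPT6L*, -0.1006 to 0.2549 for *SPT16* and 0.0601 to 0.1861 for *SSRP1*. In *bdr1,2,3* against *fpa*, leaving out each library in turn gave 114 to 721 genes called higher and 256 to 844 lower. The log2 fold changes then ran from -0.1403 to 0.0347 for *TFIIS*, -0.4067 to 0.5461 for *SPT4-1*, -0.1905 to 0.1741 for *SPT4-2*, -0.2024 to 0.0429 for *SPT5-2*, -0.0777 to 0.24 for *SPT6L*, -0.2259 to 0.0099 for *SPT16* and -0.1 to 0.0805 for *SSRP1*. For the *SPT4-1* share (percentage points), the difference then ran from -3.145 to 0.7623 in *bdr1,2,3* against wild type, from -3.321 to -0.1484 in *fpa* against wild type and from -1.559 to 2.349 in *bdr1,2,3* against *fpa*. For the log2 ratio of *SSRP1* to *SPT16*, the difference then ran from -0.1416 to 0.2897 in *bdr1,2,3* against wild type, from -0.2243 to 0.207 in *fpa* against wild type and from 0.04539 to 0.1355 in *bdr1,2,3* against *fpa*. For the log2 ratio of SPT4 to *SPT5-2*, the difference then ran from -0.503 to 0.2195 in *bdr1,2,3* against wild type, from -0.4188 to 0.09438 in *fpa* against wild type and from -0.2624 to 0.4173 in *bdr1,2,3* against *fpa*.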
